A study of Mus musculus with 6 samples.

Results

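Adgrg2 and Spink5 are a pair of genes with a large excess in the cochlea over the vestibule of the newborn mouse inner ear. Both were chosen by their measured values on these same arrays, so their excess is given as a description with no test. They are 2 of the 18193 genes named on the array. Among its 45037 probe sets 3 are annotated to a member alone, 2 of them to Adgrg2 and 1 to Spink5. A probe set is the group of short oligonucleotides with which an Affymetrix array reads 1 transcript region. All mice were wild type, of the C3H strain and at postnatal day 2, and sensory epithelia of the cochlea and of the vestibule were each read on 3 arrays. The vestibular samples combined saccule, utricle, and lateral and anterior cristae. Each pool held 10 to 12 inner ears and kept the mesenchyme below the epithelium and some neurons, so mixed cell types were measured. The sources used here do not say which pool went on which array, so p-values reflect the spread between arrays and part of it may be technical.

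Adgrg2, formerly Gpr64, encodes an adhesion G protein-coupled receptor, a class with a long extracellular part that is cut from the membrane-spanning part as the protein matures. It is best known from the efferent ductules and epididymis, where it signals through G proteins, works beside the chloride channel Cftr and is needed for fluid reabsorption and male fertility. Spink5 encodes LEKTI, a secreted inhibitor built of many Kazal-type domains. In skin it holds back kallikreins, the serine proteases that loosen the outer cell layer, and its loss in people causes Netherton syndrome.

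The bases just before the start of Adgrg2 are shown as a description. Their part in the cochlear excess was not tested. RefSeq (GRCm38.p6) places these 150 bases on the plus strand at chrX:160390540-160390689. Capitals mark the GC boxes, searched as GGGCGG on both strands.

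Adgrg2 upstream: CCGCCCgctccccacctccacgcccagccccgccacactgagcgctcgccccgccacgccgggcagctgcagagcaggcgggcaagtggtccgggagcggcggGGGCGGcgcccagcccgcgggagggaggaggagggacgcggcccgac

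Over the wider window of 300 bases around the start, 3 matches to this GC box were found, and 35.7% of the 32851 promoter windows in the same table hold at least 1. A CCAAT box (CCAAT) and a TATA box (TATAAA), searched on both strands, had 0 matches, against 37.4% and 13.6% of windows that hold one. The GC content of the Adgrg2 window was 74.0%, against a median of 52.7% over all windows, and 4.8% of windows were as high. It held 30 CpG dinucleotides, against a median of 7.

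The main probe set of Adgrg2, 1439795_at, read 11.5, 11.8 and 11.8 on the 3 cochlear arrays and 6.8, 7.1 and 7.1 on the 3 vestibular arrays. These are log2 expression values computed by the authors with the robust multiarray average (RMA) method and quantile normalization, so that 1 unit is a doubling. The tissues did not overlap, and the lowest cochlear array stood 4.4 above the highest vestibular array. The means were 11.7 ± 0.17 in cochlea and 7.0 ± 0.17 in vestibule (SD, n = 3 each). The level was thus 26.0-fold higher in the cochlea, a log2 difference of vestibule minus cochlea of -4.70 with a standard error of 0.14. In bulk tissue such as this, fewer cells of a type and less RNA per cell cannot be told apart.

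A second probe set of Adgrg2, 1438350_at, read 4.9, 6.3 and 5.2 in cochlea and 3.8, 4.0 and 3.4 in vestibule. It pointed the same way at lower values, with a gap of 0.9 between the lowest cochlear and the highest vestibular array. The means were 5.47 ± 0.74 and 3.73 ± 0.31 (SD, n = 3 each), a 3.32-fold difference, and the standard error of the log2 difference of -1.73 was 0.46 from the spread of these 6 values. Its mean over all arrays, 4.6, lay just under the lowest mean that was tested, 4.67. The fold thus differed between the probe sets of the gene, and for 1438350_at the vestibular values lay near the bottom of the range of the arrays, where 3.9% to 19.6% of probe sets read as low or lower.

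The single Spink5 probe set, 1430567_at, read 6.0, 8.5 and 8.9 in cochlea and 3.8, 3.5 and 3.9 in vestibule. All 3 cochlear values lay above the vestibular ones, the nearest by 2.1, but cochlea 1 stood well below the other cochlear arrays. The means were 7.80 ± 1.57 in cochlea and 3.73 ± 0.21 in vestibule (SD, n = 3 each), a 16.8-fold difference. The log2 difference was -4.07, with a standard error of 0.92 from its own spread and of 0.63 from limma, which draws each probe set's spread towards that of the others. In the vestibule 5.9% to 16.5% of probe sets on the same array read as low or lower, so the vestibular level was close to the lowest values the table holds.

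**Figure D1:**
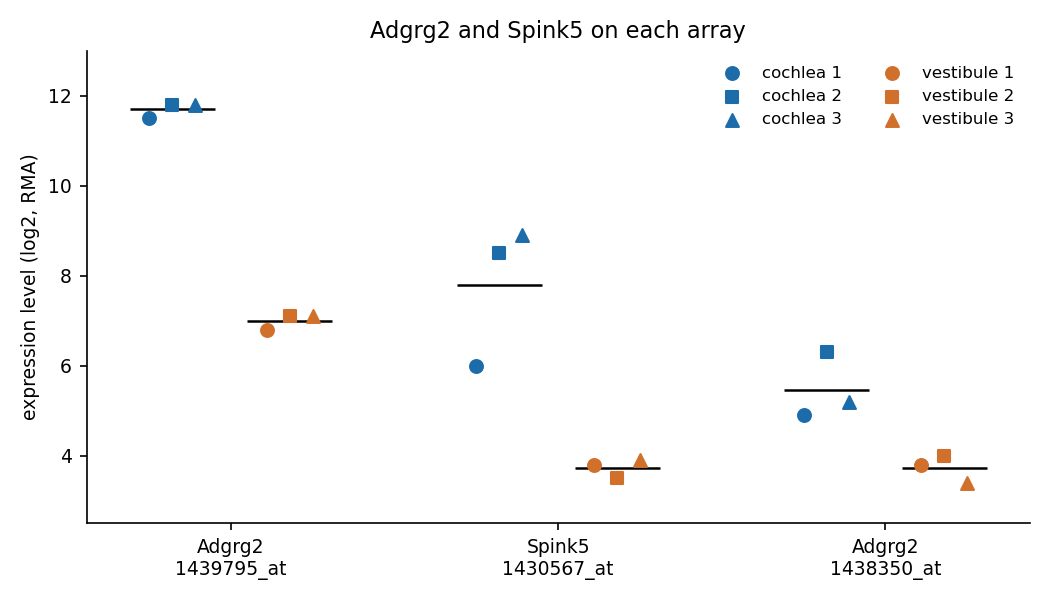
Expression level (log2, RMA) of the 3 probe sets of Adgrg2 and Spink5 on each of the 3 cochlear and 3 vestibular arrays, 1 marker shape per array number and a bar at each group mean. The cochlear values of Adgrg2 1439795_at lie between 11.5 and 11.8, while those of Spink5 run from 6.0 to 8.9.

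By the size of the log2 difference towards the cochlea, Adgrg2 stood at place 4 and Spink5 at place 8 among the 14211 genes tested, each read by its brightest probe set. For scale, 7.36% of the 29724 probe sets tested were called higher in cochlea and 12.0% higher in vestibule by limma (Benjamini-Hochberg adjusted p below 0.1, minimum fold 1.3). By gene, 7.96% were called higher in cochlea and 15.1% higher in vestibule. Both members were among the calls, which follows from how they were picked.

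The spread between cochlear arrays set Spink5 apart from the main Adgrg2 probe set. Its highest cochlear array read 7.46-fold above its lowest, against 2.64-fold for Adgrg2 1438350_at and 1.23-fold for Adgrg2 1439795_at. Over all probe sets the median SD was 0.15 between cochlear arrays and 0.12 between vestibular arrays. A cochlear SD as large as that of Spink5 was found in 3 probe sets of the 45037, Spink5 included. Among the 4897 probe sets within 0.5 of its mean cochlear level, where the median SD was 0.20, Spink5 had the largest SD. For Adgrg2 1438350_at, 178 probe sets (0.395%) had a cochlear SD as large, and 41 of the 6702 at its level (0.612%) did. The main Adgrg2 probe set was ordinary, with 47.6% of all probe sets and 50.2% of those at its level spread as widely.

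The other probe sets with the largest cochlear SD did not share the pattern of Spink5. Dpt, which encodes the matrix protein dermatopontin, had the largest at 2.08, with values of 5.2, 8.8 and 5.2 that were high on cochlea 2. C1qtnf3, a secreted protein related to complement C1q, followed at 1.65 with 3.3, 6.2 and 3.4. The muscle genes Acta1 (5.2, 8.0 and 5.5) and Tnnc2 (4.8, 7.7 and 5.4) were high on cochlea 2 as well. Ibsp, a bone matrix protein, read 7.7, 5.6 and 4.7, and Otos, a protein of cochlear fibrocytes, 9.3, 6.4 and 7.3, both high on cochlea 1. These genes were chosen by their SD after the values were seen.

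**Figure D2:**
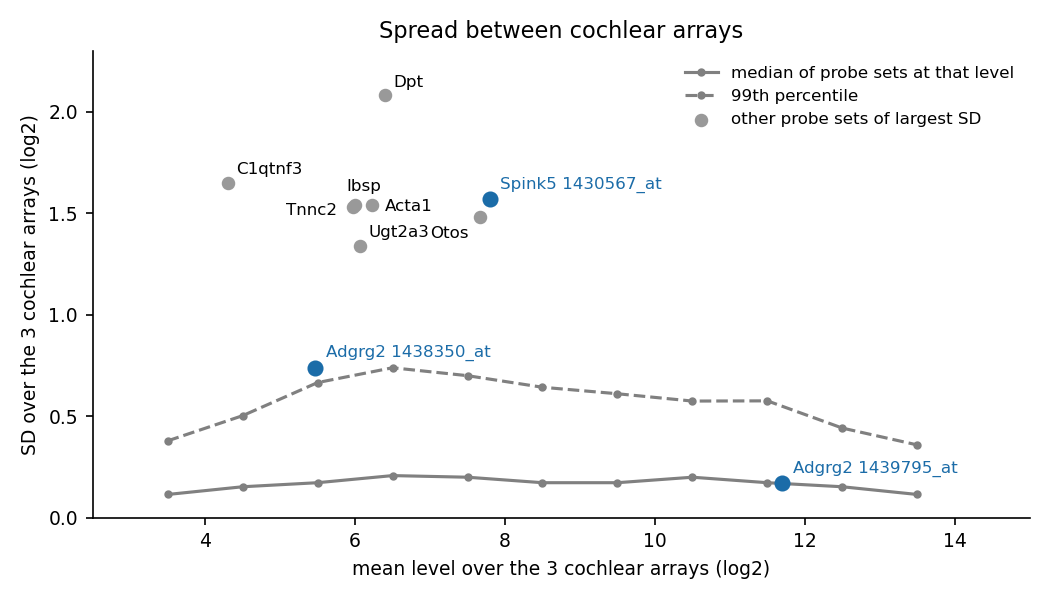
SD over the 3 cochlear arrays against the mean cochlear level (both log2), with a line at the median of all probe sets of a level and a dashed line at their 99th percentile. Spink5, at an SD of 1.57, stands with Dpt, C1qtnf3 and a few other labelled genes far above the lines, Adgrg2 1438350_at (0.74) lies near the dashed line and Adgrg2 1439795_at (0.17) on the median.

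Cochlea 1 read Spink5 2.70 log2 units below the mean of cochlea 2 and 3, the lowest such value of all 45037 probe sets. The corresponding value was -0.85 for Adgrg2 1438350_at, with 88 probe sets (0.195%) as low, and -0.30 for Adgrg2 1439795_at, with 3912 (8.69%) as low. In all, 43 probe sets (0.0955%) lay at least 1 below on cochlea 1 and 94 (0.209%) at least 1 above. Of the 43, 13 were higher in cochlea than in vestibule on all arrays. After Spink5, the lowest were Dpt at -1.80, Tnnc2 at -1.75, Acta1 and the neuronal tubulin Tubb3 at -1.55, and the neuronal synuclein Sncg and C1qtnf3 at -1.50. For Dpt, Tnnc2, Acta1 and C1qtnf3 a high value on cochlea 2 raised the mean against which cochlea 1 was set. Tubb3 (5.7, 7.3 and 7.2) and Sncg (8.1, 9.5 and 9.7) were low on cochlea 1 against both other arrays, as was Spink5. The 43 probe sets name 33 genes of mixed kinds, 2 of them (Tubb3 and Prph) in the list of neuron markers. That list holds only 12 genes and misses other neuronal genes among the 33, such as Sncg and Dcx (-1.25). The 33 also hold genes of other kinds, such as the muscle genes Tnnc2 and Acta1. The limit of 1 and these names were chosen after the values were seen.

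Markers of other cell types were set beside the low Spink5 value of cochlea 1. The mean log2 level of the 11 tested neuron markers was 8.30 on cochlea 1, 8.66 on cochlea 2 and 8.54 on cochlea 3, against 6.99 to 7.14 in vestibule. The gap to cochlea 3 rests on Tubb3 and Prph, already picked out for low values on cochlea 1, and the gap to cochlea 2 does so in part. Nefh, Snap25, Ntrk3 and Syt1 read higher on cochlea 1 than on cochlea 3. Cochlea 1 was the lowest cochlear array for 6 of the 11 (54.5%), against 19.3% of all tested probe sets, and the median of their differences on cochlea 1 was -0.25. Tubb3 and Prph are among these 6. The same share was 33.3% for hair cell, 28.6% for melanocyte, 21.4% for keratinised epithelium and 20.0% for nonsensory cochlear markers, and 0% for strial, mesenchyme, Schwann and blood cell markers. The 14 tested markers of keratinised epithelium, the kind of tissue in which Spink5 is best known, averaged 5.94, 5.96 and 5.99 on the cochlear arrays and 5.99 to 6.07 on the vestibular arrays, with a median difference of 0.00 on cochlea 1. Otic mesenchyme markers averaged higher on cochlea 1 (10.66) than on cochlea 2 (10.43) and cochlea 3 (10.10), with a median difference of 0.30. The excess of the mean over cochlea 2 rests on Otos, which was picked out above for its SD. Coch, Col1a1, Col3a1, Dcn and Lum read lower on cochlea 1 than on cochlea 2. Hair cell markers averaged 8.05, 8.19 and 7.99, and markers of the nonsensory cochlear epithelium 10.35, 10.47 and 10.17. The part of these cell types in the Spink5 value was not tested. Without cochlea 1 the log2 difference of Spink5 was -4.97 and its cochlear SD 0.28, so the cochlear excess was larger without that array.

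**Figure D3:**
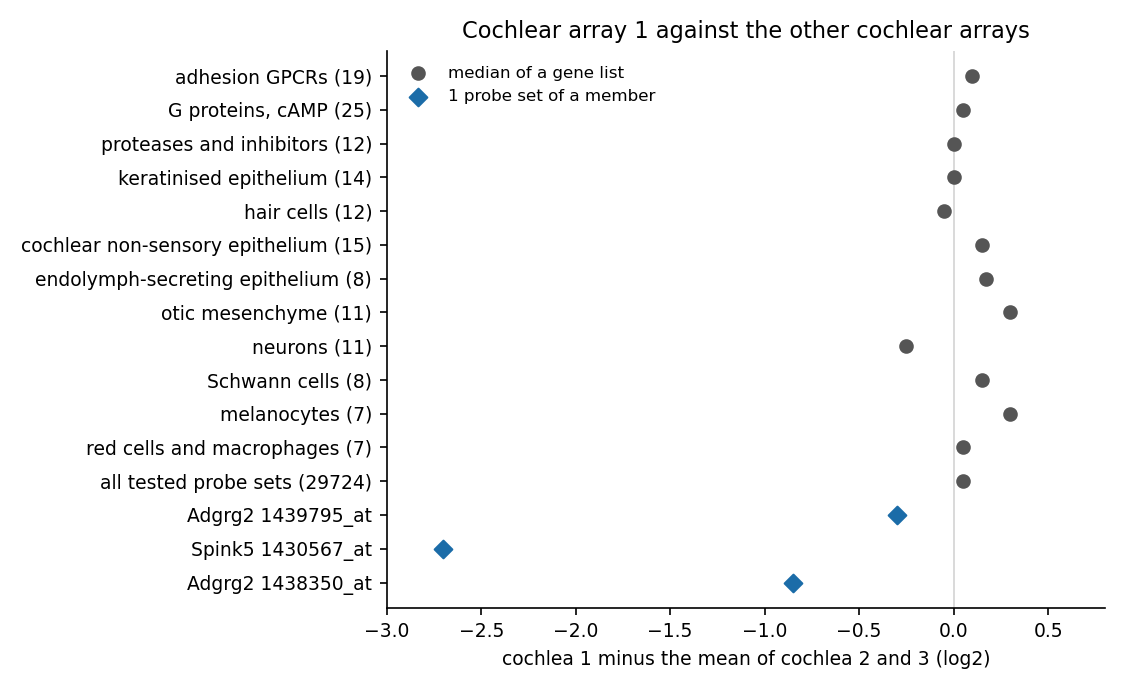
Value on cochlea 1 minus the mean of cochlea 2 and 3 (log2), as the median of each gene list (points) and for each probe set of Adgrg2 and Spink5 (diamonds). The Spink5 diamond lies at -2.70, and the list medians lie between -0.25 for neuron markers and 0.30 for otic mesenchyme and melanocyte markers.

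The tissue labels were set beside the same markers. These lists were chosen with earlier results of these data known, so this is not an independent check. Of the 15 tested genes of the nonsensory cochlear epithelium 11 were higher in cochlea (73.3%, against 7.96% of all genes). Of the others, Otog was called higher in vestibule and 3 did not pass. Of the 8 tested genes of strial marginal and dark cells 6 were higher in vestibule (75.0%, against 15.1%) and 2 did not pass. Neuron markers were higher in cochlea for 9 of 11 (81.8%), among them Stmn2, a regulator of neuronal microtubules, with 9.1, 9.7 and 9.4 in cochlea and 4.9, 5.9 and 5.7 in vestibule (limma adjusted p = 2.28e-05). Tubb3 read 5.7, 7.3 and 7.2 in cochlea and 4.5, 4.8 and 5.2 in vestibule (limma adjusted p = 0.0108). The neuron marker Ntrk3 went the other way and was called higher in vestibule. Nefm, with a higher mean in vestibule, did not pass. Neurod1, an early neuronal transcription factor, fell below the filter on low values.

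Profiles were compared by the root mean square difference over the 6 arrays between log2 values centred on each gene's mean, as a description in which the arrays of a tissue move together. Nearest to Adgrg2 was P4ha2, a subunit of the collagen prolyl hydroxylase, at 0.236, with 10.2, 10.2 and 9.9 in cochlea and 5.5, 5.7 and 5.9 in vestibule. Calb1, a calcium-binding protein, followed at 0.320, Gata3, a transcription factor of inner ear development, at 0.372, Cdh6, a cadherin, at 0.411, and Matn1, a cartilage matrix protein, at 0.423. The profiles nearest to Spink5 were less close. First was Elavl2, a neuronal RNA-binding protein, at 0.710, with 7.6, 8.1 and 8.6 in cochlea and 4.1, 4.5 and 4.0 in vestibule.

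Serpini1, which encodes the neuronal serine protease inhibitor neuroserpin, came next at 0.731. Dcx (0.818), a microtubule protein of young neurons, was 6.5, 7.6 and 7.9 in cochlea and 4.1, 4.5 and 4.9 in vestibule. Matn1 (0.840) and Stmn2 (0.867) completed the 5. Cochlea 1 entered this ranking, so a low value there is partly what chose these genes. Ranked by Pearson's r over the 6 arrays, 0 of the 5 genes were shared for either member, so these names depend on the measure.

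**Figure D4:**
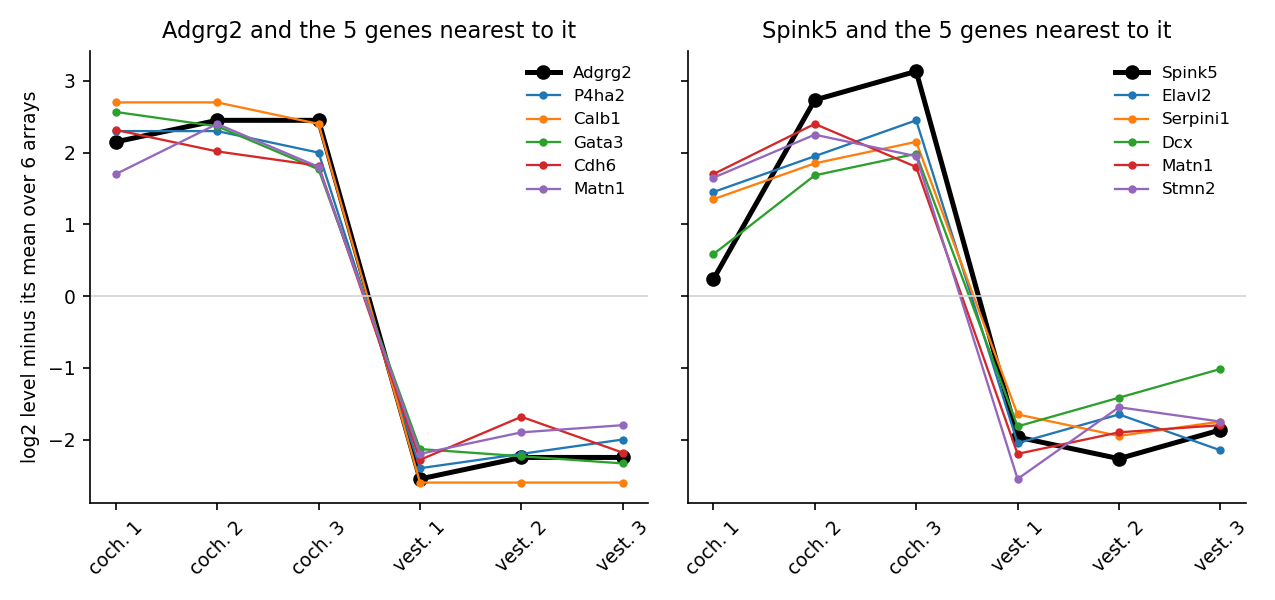
Log2 level minus its mean over the 6 arrays for Adgrg2 (left) and Spink5 (right), each with the 5 genes of nearest profile; lines join arrays only for reading. The genes nearest to Adgrg2 lie close to it (0.236 to 0.423), while those nearest to Spink5 (0.710 to 0.867) stay above it on cochlea 1.

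The receptor family of Adgrg2 moved towards the vestibule where it passed the test. Of 29 other adhesion receptors 24 had a probe set of their own and 19 were tested. By limma 0 were higher in cochlea, against 7.96% of all genes. The count was 0 at an unadjusted p below 0.05 as well, but 1 at that limit after median centring and 2 after a second quantile normalization. It depended on the settings: 1 receptor was called higher in cochlea with array weights or a replicate block (Adgrf5), without cochlea 3 (Adgrl1), and with no filter or without any 1 of the vestibular arrays (Adgrb3). In the vestibule 7 were higher (36.8%), against 15.1% of all genes, and 12 did not pass. The median log2 difference of vestibule minus cochlea was 0.20, against 0.03 over all genes tested.

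Adgre1, a surface receptor of macrophages, rose most in the vestibule. It read 7.0, 6.6 and 6.7 in cochlea and 8.4, 8.3 and 8.3 in vestibule, a log2 difference of 1.57 ± 0.13 (SE, limma adjusted p = 8.23e-05). Of 10 listed blood cell markers 7 were tested, and all 7 (100%) were higher in vestibule, against 15.1% of all genes. The part of blood cells in the Adgre1 difference was not tested. Adgrd1 followed with a difference of 1.5 (limma adjusted p = 0.000977) and Adgrl4, a receptor of blood vessel endothelium, with 0.77 (limma adjusted p = 0.0025).

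Within the G subfamily, to which Adgrg2 belongs, Adgrg1 and Adgrg6 were higher in vestibule. Adgrg1, known from development of the brain cortex, read 5.8, 5.6 and 5.4 in cochlea and 7.1, 6.6 and 6.7 in vestibule (difference 1.2, limma adjusted p = 0.00124). Its other tested probe set gave 0.90 (limma adjusted p = 0.0051). Adgrg6, which Schwann cells need to form myelin, read 10.9, 11.1 and 11 in cochlea and 11.5, 11.2 and 11.5 in vestibule (0.40, limma adjusted p = 0.0707), a call that was lost without cochlea 1, cochlea 3, vestibule 1 or vestibule 3. Adgrg3 lay below the filter at 4.23 in cochlea and 4.03 in vestibule.

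Adgrb3, a receptor of synapses, was the one of the 5 untested family members whose arrays stood apart by tissue in the direction of Adgrg2, at 5.3, 5.4 and 5.6 in cochlea and 3.7, 4.0 and 3.9 in vestibule. Its mean fell below the filter, so it was not tested, and it was called higher in cochlea when no filter was used. It was named after its values were seen.

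The signalling list for Adgrg2 held G protein subunits, adenylyl cyclases, arrestins, Cftr and effectors of cyclic AMP, which are protein kinase A subunits, the exchange factors Rapgef3 and Rapgef4 and the transcription factors Creb1 and Crem. Of 27 genes 26 were on the array and 25 were tested. In the cochlea 2 were higher (8.0%, against 7.96% of all genes), in the vestibule 6 (24.0%, against 15.1%), and 17 did not pass (median difference 0.13). Adcy2, an adenylyl cyclase, read 8.5, 8.7 and 8.6 in cochlea and 10.1, 9.9 and 10.1 in vestibule (difference 1.43, limma adjusted p = 7.04e-05). Adcy8 (0.97), Prkar2b (0.77) and Arrb1 (0.70) were also higher in vestibule.

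In the cochlea, Adcy1, another cyclase, was higher by a log2 difference of vestibule minus cochlea of -0.57 (limma adjusted p = 0.00654), and Gnal, a stimulatory G protein, by -0.47 (limma adjusted p = 0.0572). The probe sets of Adcy5, also a cyclase, disagreed. Its brightest gave -0.20 (limma adjusted p = 0.293), while another read 8.3, 8.1 and 7.9 in cochlea and 6.5, 6.3 and 6.4 in vestibule (-1.70, limma adjusted p = 5.61e-05). Adcy5 was named after its values were seen. The Gnal call was lost without cochlea 2, cochlea 3, vestibule 1 or vestibule 2. Gnas, the common stimulatory subunit, read 13, 13 and 12.3 in cochlea and 13.1, 13.1 and 13 in vestibule and did not pass (0.30, limma adjusted p = 0.349). Cftr, the chloride channel that works beside Adgrg2 in the ductules, lay below the filter on both of its probe sets. The first read 3.8, 3.9 and 3.7 in cochlea and 3.9, 4.1 and 4.0 in vestibule, and the other 3.1, 3.1 and 3.0 against 3.3, 3.2 and 3.1.

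The family of Spink5 lay near the bottom of the range. Of 12 other Spink genes 7 had a probe set, and all 7 stayed below the filter with values between 3.1 and 4.9 on every array. The means in cochlea and vestibule were 4.10 and 4.17 for Spink1, 4.77 and 4.5 for Spink2, 4.63 and 4.70 for Spink4, and 4.10 and 4.23 for Spink8. Those of Spink10 were 3.67 and 3.53, of Spink12 4.27 and 4.07, and of Spinkl 3.47 and 3.17. With no filter, limma called 0 of the 7, and 2 passed an unadjusted p under 0.05 in the direction of the cochlea. No share of all genes at that unadjusted limit is given here, so whether 2 of 7 is unusual cannot be told.

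The protease list held kallikreins and other serine proteases, the class that LEKTI inhibits, with the inhibitors Spint1, Spint2 and Serpinb6c and the protease-activated receptor F2rl1. Of 26 genes 23 were on the array and 12 were tested. In the cochlea 2 were higher (16.7%, against 7.96% of all genes), in the vestibule 1 (8.33%, against 15.1%), and 9 did not pass (median difference -0.07). Tmprss3, a membrane protease whose loss causes deafness, read 10.7, 10.6 and 10.6 in cochlea and 9.5, 9.2 and 9.5 in vestibule (difference -1.23, limma adjusted p = 0.000217). Tmprss2 read 8.9, 8.4 and 8.7 against 7.6, 7.7 and 7.5 (-1.07, limma adjusted p = 0.00124). St14, the membrane protease matriptase, was higher in vestibule by 0.60 (limma adjusted p = 0.0118).

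Klk5 and Klk7, kallikreins that LEKTI restrains in skin, were low. Klk5 averaged 4.23 in cochlea and 4.20 in vestibule, and Klk7 4.37 and 4.23, both below the filter. Klk8, another kallikrein of the list, was not low, at 8.6, 8.4 and 8.5 in cochlea and 8.2, 8.4 and 8.4 in vestibule. It did not pass (-0.17, limma adjusted p = 0.404). Klk14 had no probe set of its own.

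Among markers of keratinised epithelium, 14 of 28 on the array were tested. In the cochlea 1 was higher (7.14%, against 7.96% of all genes), in the vestibule 2 (14.3%, against 15.1%), and 11 did not pass (median difference -0.10). Krt15, a keratin of basal cells, was higher in cochlea (4.9, 5.4 and 5.4 against 4.4, 4.5 and 4.6, limma adjusted p = 0.0129), a call that was lost with the stricter filter on low values. Dmkn, the secreted protein dermokine, was higher in vestibule by 2.23 (limma adjusted p = 5.04e-05), and Krt5, a keratin of basal cells, by 0.67 (limma adjusted p = 0.00243). Markers of the cornified layers were mixed. Flg, Tgm1 and Dsc1 fell below the filter, as did the basal keratin Krt14, while Krt10 averaged 8.80 in cochlea and 8.70 in vestibule, Krt1 5.10 and 4.87, and Lor 6.87 and 6.60, and these did not pass by their brightest probe sets. A second probe set of Lor was higher in cochlea (-1.17, limma adjusted p = 0.00968).

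**Figure D5:**
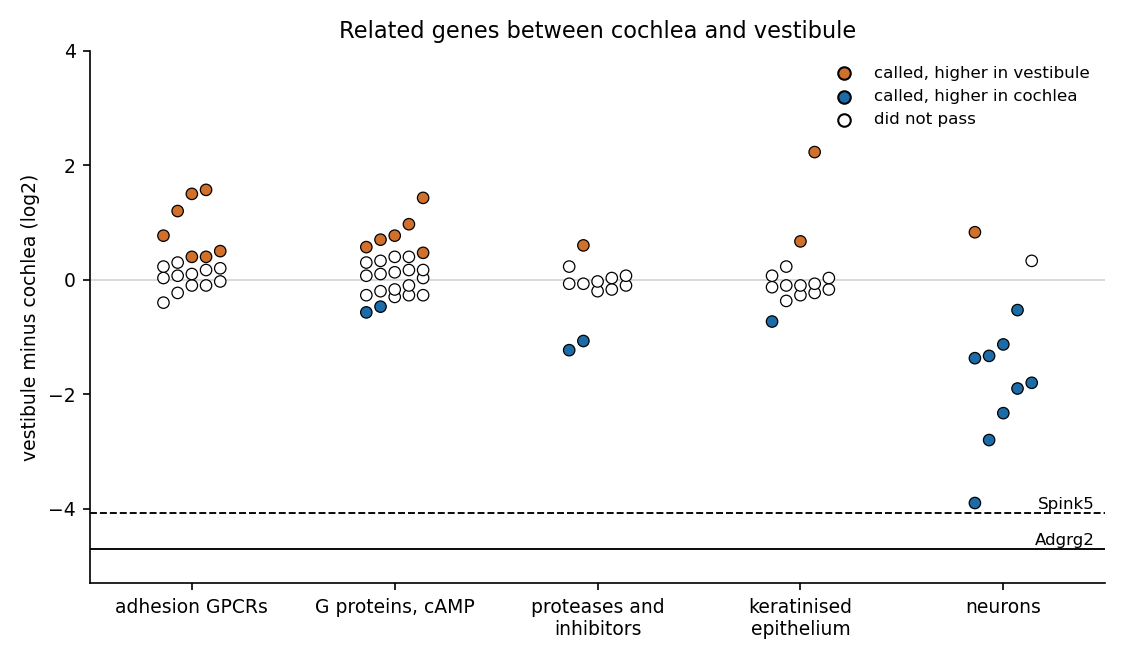
Log2 difference of vestibule minus cochlea for each tested gene of 4 lists related to Adgrg2 and Spink5 and of the neuron markers, 1 point per gene at its brightest probe set, filled where limma called it, with horizontal lines at the members (Adgrg2 -4.70, Spink5 -4.07). No point reaches the lines; the lowest is Stmn2 at -3.90 among the neuron markers, and outside them Tmprss3 at -1.23.

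The neighbours on the chromosome, 5 protein-coding genes with a probe set on each side of each member in RefSeq order (GRCm38.p6), were also counted. Of 20 such genes 13 were tested. In the cochlea 5 were higher (38.5%, against 7.96% of all genes), in the vestibule 1 (7.69%, against 15.1%), and 7 did not pass (median difference -0.23). Around Adgrg2, the genes next to it, Pdha1 (0.13) and Phka2 (0.00), did not pass. Scml2 (-0.53, limma adjusted p = 0.0111), Sh3kbp1 (-0.43, limma adjusted p = 0.0291) and Map7d2 (-0.40, limma adjusted p = 0.0787) were higher in cochlea, and Reps2 (0.60, limma adjusted p = 0.0521) was higher in vestibule. The Reps2 call held without cochlea 1 and was lost without any other array, and that of Map7d2 was lost without cochlea 1, cochlea 2, vestibule 2 or vestibule 3. That of Sh3kbp1 was lost without vestibule 3, and Sh3kbp1 and Scml2 were not called by the mean of their probe sets. Near Spink5, Jakmip2 read 5.3, 5.4 and 6.0 in cochlea and 4.5, 4.5 and 4.4 in vestibule (-1.10, limma adjusted p = 0.00336), and Dcp2, an mRNA decapping enzyme, was higher in cochlea by a difference of -0.50 (limma adjusted p = 0.0216). The genes next to Spink5, Gm94 and Spink12, lay below the filter.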

How the data were processed

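RNA of each tissue was extracted with Trizol, treated with DNase I, amplified with the Affymetrix 2-Cycle kit and hybridised to mouse arrays. The authors computed the deposited log2 values by RMA with quantile normalization, and they carry 1 decimal from 2.8 to 15, with array medians of 5.6 to 5.7. The authors kept probe sets by MAS5 Present calls, which need probe-level data not used here. For RMA and MAS5 the version is not given in the sources used. Two-cycle amplification favours the 3′ end of transcripts, so probe sets of 1 gene can differ. The members and lists were chosen with earlier results of these data known.

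Of the rows, 64 control probe sets were dropped, and the 66% of probe sets with the highest mean, at least 4.67, were tested (29724). Of the probe sets 34945 name 1 gene, 932 several and 9160 none, and 34741 symbols were updated through Entrez numbers. Vestibule was compared with cochlea in limma 3.58.1 (R 4.3.3, data.table version 1.17.8; lmFit and eBayes, two-sided, Benjamini-Hochberg) and checked on simulated data. A gene takes the value of its brightest probe set, and list counts are over genes. Named are the members, the G subfamily and Spink genes with a probe set, up to 4 called genes of each list in each direction, the 5 nearest profiles and the called neighbours. Other named genes serve as examples of values. Figures and motif counts used numpy 2.4.6, pandas 2.3.3 and matplotlib 3.10.9 in Python 3.11.15. Precision is limited by 3 arrays per tissue. Alternatives changed 1 choice at a time. The filter was dropped or tightened to 45%, arrays were centred on their medians or quantile normalized again, and the test became a plain t-test, limma with trend, limma with array weights or limma with a replicate block. Arrays were left out singly, the adjusted p limit was lowered to 0.05 or the fold limit dropped, a gene was read as the mean over its probe sets, _x_at and _s_at probe sets were removed, and profiles were ranked by Pearson's r.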

Additional observations from a re-analysis of the deposited data

How the results depend on the processing

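The members' differences were recomputed under other array scalings and with each array left out. They were also recomputed with the mean of probe sets and without _x_at and _s_at probe sets. Their direction was kept in these settings. Leaving out an array could not reverse it, because every cochlear array lay above every vestibular array at each member probe set. No member probe set is of the _x_at or _s_at kind, and Spink5 has 1 probe set only, so those settings could not reverse it either. Of all results 0 reversed. With the mean of both its probe sets in place of the brightest, the Adgrg2 difference was -3.22. This mean includes 1438350_at, which lay below the filter, whereas list counts by the mean of probe sets used only those that passed it. With each array left out in turn, the Spink5 difference ran from -4.97 to -3.52 and its cochlear SD from 0.28 without cochlea 1 to 2.05 without cochlea 2. For Adgrg2 1438350_at these were -2.02 to -1.32 and 0.21 to 0.99, and for 1439795_at -4.80 to -4.60 and 0.00 to 0.21. Probe sets called numbered 1324 higher in cochlea and 2198 higher in vestibule by the plain t-test, against 2188 and 3567, and over the left-out arrays 1432 to 2772 and 2340 to 3895, lowest without vestibule 1 (1432 and 2340). The adhesion receptors higher in cochlea numbered 1 with no filter or without _x_at and _s_at probe sets (Adgrb3) and 1 with array weights (Adgrf5), and 0 to 1 over the left-out arrays, with Adgrl1 called without cochlea 3 and Adgrb3 without any 1 of the vestibular arrays; those higher in vestibule numbered 5 to 7. The G protein and cAMP genes higher in cochlea numbered 1 with the stricter filter, the t-test, array weights or an adjusted p under 0.05, and 1 to 3 over the left-out arrays; those higher in vestibule numbered 3 by the t-test and 3 to 7, lowest without vestibule 1. Keratinised epithelium genes higher in cochlea numbered 0 with the stricter filter or the t-test, 2 with the mean of probe sets and 1 to 2 over the left-out arrays (2 without cochlea 2 and without cochlea 3), and those higher in vestibule 1 with the stricter filter. Neighbours higher in cochlea numbered 3 with the mean of probe sets and 3 to 5 over the left-out arrays (3 without vestibule 3), and those higher in vestibule 0 by the t-test, at an adjusted p under 0.05 and without any 1 of the arrays but cochlea 1, so 0 to 1. Serine protease counts stayed at 2 and 1 and Spink counts at 0. The genes of nearest profile shared with those ranked by Pearson's r numbered 0 for both members. With a replicate block, 1 adhesion receptor (Adgrf5) was higher in cochlea and 0 neighbours were higher in vestibule, and no other count moved by over 1.5 times; deviations of same-numbered arrays correlated at 0.217, 0.152 and -0.001, cochlea 1 and 2 correlated best with their own number and cochlea 3 did not (0.029 with vestibule 2), and the numbers were not taken to pair the samples. The cause of these changes was not tested. Signals near the floor of the table limit the vestibular values of Spink5 and Adgrg2 1438350_at.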
